A study of Labeotropheus fuelleborni x Mchenga conophoros and Petrotilapia nigra x Mchenga conophoros and Petrotilapia nigra x Aulonocara baenschi with 10 samples.

Results

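Glutamate receptor genes were examined in whole-brain mRNA of 10 F1 hybrid males from crosses between a rock-dwelling father and a sand-dwelling mother of Lake Malawi cichlids. The members are the rows of the brain count table whose human counterpart, as listed in a gene table of the study, begins with GRIA, GRIK, GRIN, GRID or GRM. The rule found 9 of 32455 rows, and all 9 had enough counts to be tested, among 7733 rows tested in all. Names were at hand for 812 rows only, of which 647 were tested, so a receptor gene outside that table has no name here and is not among the 9. The table lists genes that the study called between social rock and social sand brains on these same samples. Counts and directions of the members between those groups are therefore a description and not independent evidence.

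Social rock males (n = 4) courted females over rock in the presence of a brother, and the 4 brothers that courted over sand in the same tanks are called social sand males. Lone males (n = 2) were tested without another male and courted over rock. All were F1 males collected during courtship. Each dyad came from 1 brood, and the broods were Petrotilapia nigra × Mchenga conophoros, Petrotilapia nigra × Aulonocara baenschi, Maylandia zebra × Tramitichromis intermedius and Labeotropheus fuelleborni × Mchenga conophoros, father first. They are named below by the genera of the parents. The lone males were a further brother of the Labeotropheus × Mchenga dyad and a Maylandia zebra × Mchenga conophoros male. Each cross thus gave 1 male to a group, and the study describes the social rock brother as the larger of each dyad, so body size and courtship site cannot be told apart. The sample titles mark the social rock males DOM and the social sand males SUB, so a status meant by these marks cannot be told apart from courtship site either. In the study's view its data seem not to follow a dominant-subordinate model. It reports that relative gonad weight did not differ between the brothers and that both courted females. The sources used here give no ages.

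Glutamate is the main excitatory transmitter of the vertebrate brain. AMPA receptors carry most of the fast excitatory current, NMDA receptors let calcium enter when glutamate binding and depolarisation coincide and are known for their part in synaptic plasticity, and delta receptors bridge synapses of the cerebellum through secreted cerebellin. Metabotropic receptors act through G proteins, and those of groups II and III lower cyclic AMP and transmitter release.

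By role the 9 genes fall into ionotropic subunits, metabotropic receptors and proteins associated with receptors. The first set holds gria2 (gene1140), which encodes AMPA subunit 2, the subunit that keeps calcium out of the channel once its transcript is edited, and grin2a (gene3689), which encodes the glutamate-binding NMDA subunit 2A. It also holds 3 genes with the human counterpart GRIA4 whose annotations carry other names: LOC101467141 (gene1393, glutamate receptor 1), LOC101486280 (gene25869, glutamate receptor U1, a name first given to a Xenopus subunit) and LOC101474840 (gene5284, probable glutamate receptor, a name also borne by a kainate-binding protein of chick). Which subunit these 3 encode was not settled here. The metabotropic receptors are LOC101468980 (gene7484, GRM3, of group II, found on neurons and astrocytes of mammals) and LOC101481524 (gene5564, GRM4, of group III, mainly presynaptic in mammals). The remaining 2 are no receptor subunits: grina (gene23226) encodes a membrane protein that was named for an association with NMDA receptors, and LOC101484712 (gene3908, GRID2IP) encodes delphilin, a scaffold that binds the delta-2 receptor at mouse parallel fibre synapses. No kainate receptor gene with a GRIK entry was found. Chromosomal positions and sequences were not analysed here. Reads that paralogs share could be split between genes by the counting, which is a limit for the GRIA genes in particular.

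Depth differed between the groups. Social rock libraries held 492489 to 694114 counts, social sand libraries 206320 to 335551 and lone libraries 375132 and 457974. The 9 genes together took 361 to 972 counts in a social rock library, 57 to 119 in a social sand library and 585 to 679 in a lone library. Levels are given as CPM, a gene's counts scaled to a library total that TMM had adjusted, and compare libraries within a gene, not genes with each other. Calls required a fold of at least 2 and a p under 0.05 from edgeR's quasi-likelihood test after Benjamini-Hochberg adjustment across the 7733 genes. SE is the standard error of a log2 fold change, and each library is 1 fish.

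The AMPA subunit gene gria2 was lower in social sand brains. In social rock males it stood at 271 CPM (Petrotilapia × Mchenga), 306 (Petrotilapia × Aulonocara), 373 (Maylandia × Tramitichromis) and 667 (Labeotropheus × Mchenga). Their social sand brothers, in the same order, had 73.9, 76.6, 109 and 266 CPM from 21, 14, 25 and 65 counts. The groups did not overlap, although the highest social sand male, of the Labeotropheus cross, came close to the lowest social rock male. The lone Labeotropheus × Mchenga male had 600 CPM and the lone Maylandia × Mchenga male 475, both above all social sand males and within the range of social rock. The mean was 404.2 ± 180.1 CPM over social rock males and 131.4 ± 91.17 over social sand males (SD, n = 4 each), with a log2 fold change of -1.61 (SE 0.397, edgeR adjusted p = 0.0335). Comparing brothers, by brood as a block, the log2 fold change was -1.72 (edgeR adjusted p = 5.91e-05). Of 10 fits that each omitted a library, 5 lost the call (edgeR adjusted p up to 0.108). They omitted the social rock male of the Maylandia × Tramitichromis or Labeotropheus × Mchenga brood, or the social sand male of any brood but the latter.

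**Figure D1:**
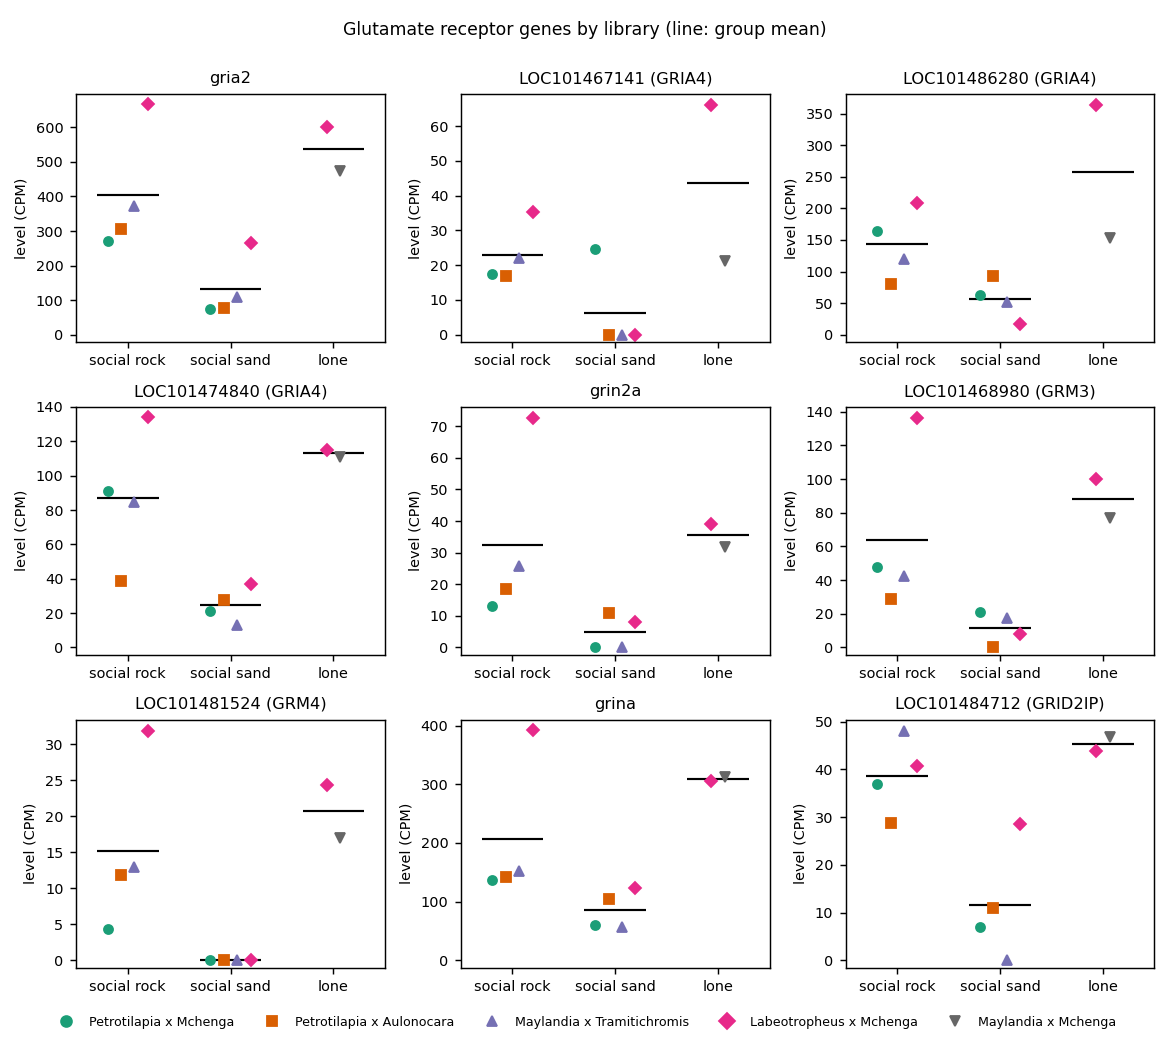
Level of each of the 9 genes (vertical axis, CPM, a separate linear scale in each panel) in the 4 social rock, 4 social sand and 2 lone libraries; a symbol is 1 library, its shape and colour give the cross, and the line is the group mean. Social sand libraries lie below all social rock libraries in 7 panels, as in 8.97% of all genes tested. They overlap for LOC101467141 and LOC101486280. The 9 come from genes that the study called between these groups. The Labeotropheus × Mchenga social rock male is the highest library in 6 panels.

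LOC101474840, the probable glutamate receptor, was the other gene called. Social rock males had 91.2, 38.8, 84.9 and 134 CPM in the order of crosses given above. Social sand males had 21.1, 27.4, 13.1 and 36.8 CPM from 3 to 9 counts each. The gap between the groups was narrow, between the Petrotilapia × Aulonocara social rock male at 38.8 and the Labeotropheus × Mchenga social sand male at 36.8 CPM. The lone males, at 115 and 111 CPM, were near each other. The mean was 87.34 ± 39.13 CPM over social rock males and 24.59 ± 10.04 over social sand males (SD, n = 4 each), with a log2 fold change of -1.82 (SE 0.455, edgeR adjusted p = 0.0357). Of the 10 fits, 6 lost this call (edgeR adjusted p up to 0.0981), namely those that omitted the Maylandia × Tramitichromis male of either context, the Petrotilapia × Mchenga male of either context, the Labeotropheus × Mchenga social rock male or the Maylandia × Mchenga lone male.

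The other 2 genes with a GRIA4 entry overlapped between the contexts. LOC101486280, the U1 gene, had 165, 81, 120 and 209 CPM in social rock and 63.3, 93.1, 52.3 and 16.4 in social sand. The Petrotilapia × Aulonocara brothers differed little and in the other direction, with 81 CPM (48 counts) in the social rock and 93.1 (17 counts) in the social sand male. The 16.4 CPM of the Labeotropheus × Mchenga social sand male rest on 4 counts. In lone males the U1 gene stood at 364 and 153 CPM, and the former was the highest of the 10 libraries. Between social sand and social rock the log2 fold change was -1.37 (SE 0.45, edgeR adjusted p = 0.0936), and it passed with brood as a block (edgeR adjusted p = 0.0229). LOC101467141, annotated as glutamate receptor 1, had 8, 10, 12 and 20 counts in social rock libraries and 7, 0, 0 and 0 in social sand libraries. The 7 counts came from the Petrotilapia × Mchenga social sand male and made 24.6 CPM against 17.4 in the brother. In lone males the counts were 27 and 10, and 65.9 and 21.3 CPM. The log2 fold change of social sand over social rock was -1.67 (SE 0.895, edgeR adjusted p = 0.282). Without that social sand male it was -6.26, a fitted value against 3 libraries at 0, and was called (edgeR adjusted p = 0.0413). The gene was then tested only through its social rock and lone libraries, so this call supports nothing.

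The NMDA subunit gene grin2a was sparse. Social rock libraries had 6, 11, 14 and 41 counts (13, 18.6, 25.8 and 72.5 CPM), and social sand libraries had 0, 2, 0 and 2 (0, 10.9, 0 and 8.18 CPM). The groups did not overlap, but 13 and 10.9 CPM rest on 6 and 2 counts. Lone males had 39 and 31.9 CPM, above every social sand male. The log2 fold change between social sand and social rock was -2.82 (SE 0.875, edgeR adjusted p = 0.0777), and -2.8 with brood as a block, where it was called (edgeR adjusted p = 0.0412). Grin2a had enough counts to be tested only through social rock and lone libraries, so that call supports nothing.

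Both metabotropic receptor genes were lower in each social sand male than in any social rock male, as were 8.97% of all genes tested. Neither passed the test between these groups. GRM3 (LOC101468980) had 47.8, 28.7, 42.4 and 136 CPM in social rock, and 21.1, 0, 17.4 and 8.18 in social sand from 6, 0, 4 and 2 counts. The lone males had 100 and 76.6 CPM, which lay between the Labeotropheus × Mchenga social rock male and the other social rock males. Its log2 fold change was -2.34 (SE 0.646, edgeR adjusted p = 0.0531), or -2.28 with brood as a block (edgeR adjusted p = 0.00914, called). GRM3 had enough counts to be tested only through social rock and lone libraries, so that call supports nothing. GRM4 (LOC101481524) had 2, 7, 7 and 18 counts in social rock (4.34, 11.8, 12.9 and 31.8 CPM) and 10 and 8 in lone libraries (24.4 and 17 CPM). It had 0 counts in all 4 social sand libraries. Against a floor of 3 counts over the social sand group, the pooled level of GRM4 was 4.92-fold this floor in social rock and 6.43-fold in lone males. These ratios leave out the counting error of the social rock and lone counts. GRM4 had enough counts to be tested only through those groups. Floors and intervals here cover counting error only. Its fitted log2 fold change of -5.64 (SE 1.65, edgeR adjusted p = 0.0731) depends on how a group at 0 is fitted and is no bound. The test missed the threshold with brood as a block as well (edgeR adjusted p = 0.0904).

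Among the associated proteins, grina had 137, 142, 153 and 393 CPM in social rock and 59.8, 104, 56.6 and 123 in social sand. The Labeotropheus × Mchenga social rock male was far above the other 3, and the lone males reached 305 and 313 CPM. The log2 fold change was -1.27 (SE 0.389, edgeR adjusted p = 0.0756) and -1.2 with brood as a block (edgeR adjusted p = 0.0224, called). The delphilin gene LOC101484712 had 36.9, 28.7, 48 and 40.7 CPM in social rock. In social sand this gene had 7.03, 10.9, 0 and 28.6 CPM from 2, 2, 0 and 7 counts. Unlike the other genes it was not highest in a Labeotropheus male, and the highest social sand male, at 28.6 CPM, was level with the lowest social rock male, at 28.7. With 43.9 and 46.8 CPM the lone males were within the social rock range. The log2 fold change was -1.69 (SE 0.631, edgeR adjusted p = 0.135).

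Of the 9 genes, 2 were called lower in social sand than in social rock, 0 were called higher and 7 did not pass. An unadjusted p under 0.05 was found for 8 of the 9. The same held for 1675 of the 7733 genes tested and 620 of the 647 named genes tested. Over all genes tested 3.14% were called lower, and over the named genes 35.9%. The median log2 fold change of the 9 was -1.69, against -0.07 over all genes tested and -2.04 over the named genes, and it remained -1.69 with GRM4 taken from its floor. Social sand lay below social rock without overlap in 7 of 9 genes, as in 8.97% of all genes tested. Among the 7 are GRM4, GRM3, grin2a and delphilin, whose social sand counts were too few for testing. They were tested through their social rock and lone libraries. Since the table of names holds genes chosen for this contrast, these shares say nothing particular of receptors. In the rest of this paragraph, shares of the named genes count calls in either direction, which were 39.1% as reported. With brood as a block 6 of 9 were called, beside 66% of the named genes, and DESeq2 called the same 6 beside 63.2%. Among these 6 are GRM3 and grin2a, whose calls support nothing for the reason given. Limma-voom called 0, with 7 at an unadjusted p under 0.05, beside 1373 of all 7733 genes tested. The study also used limma-voom, and its calls of these 9 genes were not returned here, for reasons not tested. The fit without a low-count filter called 7. Of the named genes limma-voom called 4.33% and the fit without that filter 61.1%. Of these settings, those that called more than 2 of the 9 had a share of the named genes above 39.1%, and limma-voom had one below. With 1 library left out the count was 5 without the Petrotilapia × Aulonocara social rock male (gria2, the U1 gene, LOC101474840, GRM3 and grina) and 3 without the Labeotropheus × Mchenga social sand male, where delphilin joined the 2. Beside these counts stand 57.9% and 37.1% of the named genes called, the latter below the 39.1% as reported. Delphilin was there tested only through social rock and lone libraries, so its call supports nothing. The count was 0 without the Maylandia × Tramitichromis male of either context or the Labeotropheus × Mchenga social rock male, where 12.4% to 19.7% of the named genes were called. It was 1 without the Petrotilapia × Mchenga male of either context or the Petrotilapia × Aulonocara social sand male, where 23% to 36.4% of the named genes were called. Without the Petrotilapia × Mchenga social sand male that 1 gene was LOC101467141, with social sand at 0, and neither gria2 nor LOC101474840 was called. Calls were thus lost across the named genes and not in the 9 alone.

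**Figure D2:**
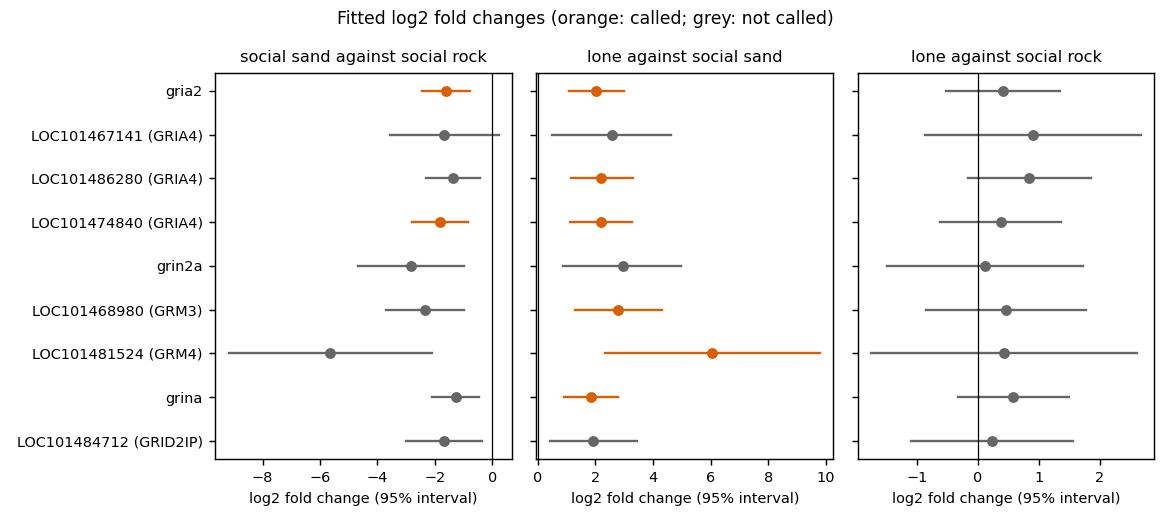
Fitted log2 fold changes of the 9 genes from edgeR (points) with 95% intervals (lines) for social sand against social rock, lone against social sand and lone against social rock, each on its own horizontal scale; orange marks called genes. In the first comparison 2 genes are orange and 1 interval (LOC101467141) crosses 0, in the second 6 are orange, and in the third all 9 intervals cross 0.

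Within broods the values are a description only, since the 9 come from genes that the study called between these same males. Comparing each social sand male with his social rock brother, 8 of 9 genes were lower in the Petrotilapia × Mchenga and Petrotilapia × Aulonocara broods, and 9 of 9 in the Maylandia × Tramitichromis and Labeotropheus × Mchenga broods. The exceptions were LOC101467141 in the first brood and the U1 gene in the second. Median differences of log2 CPM (prior count 2) over the 9 genes were -1.32, -1.08, -1.84 and -2.55 in the same order of broods. Over all genes tested they were -0.04, -0.05, -0.16 and -0.22. Differences by brood were not summarised for the named genes, so these medians do not set the 9 apart from them. For gria2 the 4 differences lay close together, at -1.81, -1.93, -1.73 and -1.31. Those of the U1 gene ran from 0.19 to -3.32 and those of GRM3 from -1.02 to -3.42, with the largest in the Labeotropheus × Mchenga brood in both cases.

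**Figure D3:**
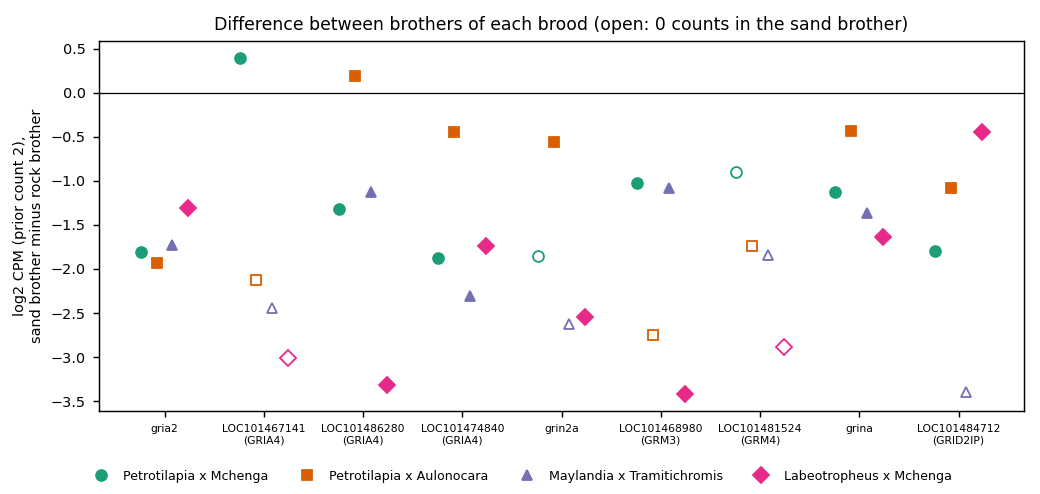
Difference in log2 CPM (prior count 2) between the social sand and the social rock brother of each brood for the 9 genes; a symbol is 1 brood, and open symbols mark social sand brothers with 0 counts, whose value depends on the prior count. Only LOC101467141 in Petrotilapia × Mchenga (0.40) and LOC101486280 in Petrotilapia × Aulonocara (0.19) are above 0, and gria2 has the values -1.81, -1.93, -1.73 and -1.31.

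The Labeotropheus × Mchenga social rock male stood above the mean log2 CPM of his group in 9 of 9 genes, by 0.83 on average. The same male lay 0.63 above the group mean over the named genes. The Petrotilapia × Aulonocara social rock male was below the mean in all 9, with a mean deviation of -0.48 (named genes -0.42). Without the Labeotropheus × Mchenga social rock male, 7 genes were tested and 0 were called, beside 15.7% of the named genes called in either direction. Fold changes were still below 0 in all 7. The lone brother of this male had log2 CPM values that differed from his by -0.82 (grin2a) to 0.81 (LOC101467141).

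Log2 fold changes of lone over social sand males were above 0 in all 9 genes, from 1.85 to 6.06. Of the 9, 6 were called higher in lone males and 3 did not pass. Of all genes tested 6.96% were called higher in lone males, and of the named genes 60%. Those called were gria2, the U1 gene, the probable glutamate receptor LOC101474840, GRM3, GRM4 and grina. The lone mean of gria2 was 537.5 ± 88.78 CPM (SD, n = 2) against the social sand mean given above, a log2 fold change of 2.02 (SE 0.454, edgeR adjusted p = 0.0138). The U1 gene followed with 2.21 (SE 0.51, edgeR adjusted p = 0.0152) and LOC101474840 with 2.19 (SE 0.513, edgeR adjusted p = 0.0163). GRM3 (LOC101468980) had a log2 fold change of 2.80 (SE 0.717, edgeR adjusted p = 0.0246) and grina one of 1.85 (SE 0.446, edgeR adjusted p = 0.0179). GRM3 had at most 6 counts in a social sand library and passed the low-count filter only through social rock and lone libraries. Grin2a, LOC101467141 and delphilin likewise had too few social sand counts to pass through that group. The filter thus favoured a difference from social sand, and the place of GRM3 among the 6 supports nothing. GRM4 (LOC101481524) passed the low-count filter only through the libraries in which it had counts, those of social rock and lone males, so a difference from social sand at 0 was set by the filter and its place among the 6 supports nothing. Its edgeR adjusted p was 0.0443, and the call was lost in all 9 fits that left out a library and still tested the gene (0.0508 to 0.172). The 3 that did not pass were LOC101467141 (2.57, edgeR adjusted p = 0.0945), grin2a (2.94, edgeR adjusted p = 0.0639) and delphilin (1.93, edgeR adjusted p = 0.0877).

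In 8 of 9 genes both lone males were above every social sand male, as in 27.1% of all genes tested, and LOC101467141 was the exception. Among the 8 are GRM4, GRM3, grin2a and delphilin, whose social sand counts were too few for the low-count filter. They passed it through their social rock and lone libraries. The median log2 fold change was 2.21, also with GRM4 taken from its floor, against 0.07 over all genes tested and 2.45 over the named genes, so the 9 did not stand apart from the table they came from. This comparison shares the social sand libraries with the one above, and its genes come from the same table. The calls rest on both lone males, and a fit with 1 of them left out is described by its fold changes only. The median log2 fold change of the 9 genes was 1.96 without the Labeotropheus × Mchenga lone male. Without the Maylandia × Mchenga lone male it was 2.7. The call of grina was lost without the Maylandia × Tramitichromis social sand male. LOC101467141 was called without the Petrotilapia × Mchenga social sand male, and delphilin without the Labeotropheus × Mchenga social sand male. In those fits both genes were tested only through social rock and lone libraries, so these calls support nothing. Limma-voom called 3 of the 6, namely gria2, the U1 gene and grina. A fit with brood as a block was not used for lone males, since 1 of the 2 is the only male of his brood.

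Between lone and social rock males 0 of 9 genes were called, and 0 had an unadjusted p under 0.05. Over all genes tested 0% were called by edgeR, with 275 at an unadjusted p under 0.05, and limma-voom and DESeq2 called 0 as well (524 and 250 at that p). All 9 genes overlapped between these groups. The log2 fold changes of lone over social rock ran from 0.12 (grin2a) to 0.90 (LOC101467141), with a median of 0.42 against 0.05 over all genes tested and 0.40 over the named genes. Without the Labeotropheus × Mchenga social rock male the median was 0.80 over the 7 genes then tested. The intervals were wide. That of gria2 ran from -0.53 to 1.35, that of the U1 gene from -0.17 to 1.86 and that of grin2a from -1.50 to 1.73, so for these 3 genes differences of 2-fold and more lie within the interval.

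**Figure D4:**
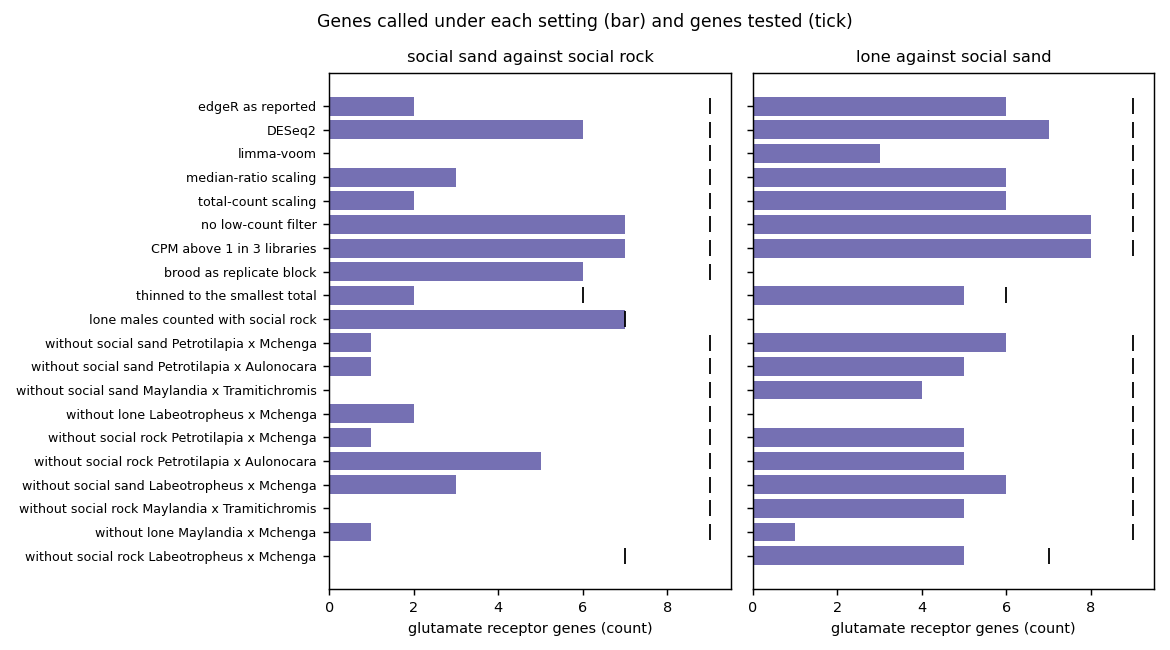
Number of the 9 glutamate receptor genes called (bars) and tested (black ticks) under each setting for social sand against social rock (left) and lone against social sand (right); rows without a tick were not run for that comparison, and the setting with lone males counted as social rock was chosen after the values were seen. On the left the bars run from 0 to 7 and on the right from 0 to 8, with 2 and 6 as reported.

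Cell markers moved with the receptor genes. The markers were matched in the table of names, so they too were chosen by the study on these samples. Neuron markers (7 genes) summed to 2172 to 4325 CPM in social rock, 896.3 to 1586 in social sand and 3715 to 4480 in lone libraries. Astrocyte markers (7 genes) summed to 1995 to 4939, 814.6 to 1244 and 3581 to 3706 CPM, with gldc at 0 in every social sand library. Myelin markers (5 genes) summed to 1546 to 3571, 461.7 to 888.1 and 2660 to 3380 CPM. Called lower in social sand than in social rock were 4 of 7 neuron, 6 of 6 tested astrocyte and 4 of 5 myelin markers, beside 35.9% of the named genes and 3.14% of all genes tested. In whole-brain RNA fewer cells of a type and less RNA per cell cannot be told apart, and the part of cell makeup in the receptor values was not tested.

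As a share of the neuron marker sum, the sum of the 9 genes was lower in 3 of the 4 social sand males, which was not tested. The sum of the 9 includes grina and delphilin, which are no receptor subunits. It rests in large part on gria2 and grina (means 404.2 and 206.1 CPM over social rock males). The marker sum rests in large part on snap25 (mean 1326 CPM over social rock males). The 9 genes summed to 30.9% to 39.8% of the neuron marker sum in social rock, to 37% and 33.5% in lone and to 17.1%, 22.4% and 22.6% in the first 3 social sand libraries. In the Labeotropheus × Mchenga social sand male the share was 54.3%, the highest of all 10 libraries, with the lowest neuron marker sum. After every library was thinned to 206320 counts, the smallest total, 6 of the 9 genes passed the low-count filter and 2, gria2 and LOC101474840, were called lower in social sand. At that depth 51.2% of the named genes and 5.7% of all genes tested were called in either direction.

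Other named genes of glutamate synapses were lower in social sand wherever they were called, and their counts below stand beside 35.9% called lower among the named genes and 3.14% among all genes tested. Of 3 genes of glutamate supply and clearance, 2 were called lower: slc1a2, the astrocyte glutamate transporter (log2 fold change -2.16, SE 0.36, edgeR adjusted p = 0.00662) and glutamine synthetase (LOC101463785, -1.60, SE 0.409, edgeR adjusted p = 0.0406). The vesicular glutamate transporter gene LOC101484681 (SLC17A7) stood at 136.8 ± 61.22 CPM over social rock males and 57.71 ± 41.4 over social sand males (SD, n = 4 each) and did not pass (edgeR adjusted p = 0.138). Of 13 genes of receptor scaffolds, auxiliary subunits and synaptic organisers 5 were called lower and 8 did not pass, a share near that of the named genes. Among the 5 were the scaffold CASK (LOC101469939, log2 fold change -1.61, edgeR adjusted p = 0.0293) and cerebellin-1 (LOC101465405, -2.00, edgeR adjusted p = 0.0295), the secreted partner of delta receptors. Further members of the 5 were LRRC4B (LOC101482399, -1.97), an adhesion protein of excitatory synapses, and dlgap1 (-3.11), a scaffold of the postsynaptic density, with edgeR adjusted p of 0.0375 and 0.0474. Of 12 genes of G protein and calcium signalling 6 were called lower, 3 of which encode calmodulin and may share reads. The other 3 of these encode the G protein subunit beta-1 (LOC101487059, log2 fold change -3.37, edgeR adjusted p = 0.0273) and the catalytic subunit of calcineurin, a calcium-activated phosphatase (LOC101468521 and ppp3ca, -1.56 and -1.14, edgeR adjusted p = 0.0335 and 0.0474). Between lone and social sand males 2 of 3, 10 of 13 and 8 of 12 genes of these lists were called higher in lone males, beside 60% of the named genes and 6.96% of all genes tested. The median log2 fold changes of the 3 lists in social sand over social rock were -1.60, -1.87 and -2.00, against -1.69 for the 9 genes and -2.04 for the named genes.

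Within groups the 9 genes varied together about as named genes did. Deviations of log2 CPM from the group means over the 10 libraries had a median Pearson correlation of 0.32 over the 36 pairs of the 9 genes, from -0.40 to 0.95. The median was 0.25 over all pairs of named genes and 0.006 over pairs within a systematic subset of all genes tested (1 in 5). As a description, the closest pair was grin2a with grina (0.95), and the farthest was gria2 with the U1 gene (-0.40). Libraries share depth and the high Labeotropheus × Mchenga social rock male, and the median between gria2 and all genes tested was 0.05. Among 646 other named genes, those with deviations most like gria2 were rtf2 (0.955), a replication termination factor, LOC101473198 (FBXW11, 0.949), an F-box protein, cacna2d2 (0.942), an auxiliary subunit of voltage-gated calcium channels, LOC105940424 (GOLGA7, 0.937) and zc3h15 (0.936). Without the Labeotropheus × Mchenga social rock male these correlations were 0.92 to 0.94. The 5 genes were picked as the highest on these same libraries, so values that stay high support nothing. Social sand means of rtf2, FBXW11 and GOLGA7 were 3.069, 4.092 and 2.046 CPM, where log2 CPM depends on the prior count.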

How the data were processed

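The authors made stranded mRNA libraries from whole brains, aligned reads to the Maylandia zebra genome with TopHat2 2.0.9, handled alignments with SAMtools 0.19 and deposited raw counts per gene from HTSeq 0.6.1. The submitters' processing notes also list edgeR 3.6.8. Whether the counting used strand, and how reads with several alignments were counted, is not given in the sources used here. The deposited count table holds 1 column per fish, and every column was used. Groups came from the sample titles, in which DOM was taken as social rock, SUB as social sand and LONE as lone.

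Genes were kept by edgeR's filterByExpr (minimum count 10), TMM-scaled and put through the quasi-likelihood test of edgeR 4.0.16 (R 4.3.3). All 10 libraries entered 1 fit of 3 groups without a block. P-values were adjusted by Benjamini-Hochberg over all genes tested. Intervals of fold changes are 95% intervals from the same fit. Alternatives were DESeq2 1.42.0, limma-voom (limma 3.58.1), other scalings and filters, brood as a block, thinning and leaving out each library. Figures used matplotlib 3.10.9.

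Brothers shared a brood per the series' description, so brood pairs the libraries. Between brothers, deviations from group means had correlations of 0.0666, 0.197, 0.126 and 0.213 in the 4 broods, across genes, which are not independent replicates.

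Names came from a table of the study, whose fold changes and p-values were not used. All genes matching the rule are named. Of each related list up to 4 genes with the smallest p were to be named. Of the signalling list, LOC101468521 and ppp3ca were added to account for its calls and 3 calmodulin genes are given as a count. The members, the lists and the markers were chosen with earlier results of these data known.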

Additional observations from a re-analysis of the deposited data

Results flagged for a closer look

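Among 17 groups of 4 libraries in which 1 of the 9 genes had counts, 2 held a library far from the other 3. Distance was taken by Dixon's ratio of the gap to the whole range. In social sand the Petrotilapia × Mchenga male had 24.6 CPM of LOC101467141 and the other 3 males had 0, a ratio of 1. With those 3 at 0, any count in this male gives a ratio of 1, so this flag supports nothing. In social rock the Labeotropheus × Mchenga male had 393 CPM of grina and the next male 153, a ratio of 0.936. Chance alone flags a small share of such groups, about 5% for normal values, which low counts with several libraries at 0 are not.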

How the results depend on the processing

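The fold changes of the 9 genes in social sand over social rock were below 0 under every alternative that tested them, and the number called varied. Against 2 as reported (39.1% of the named genes called in either direction), DESeq2 called 6 (63.2%), limma-voom 0 (4.33%), the fit with no low-count filter 7 (61.1%), that with a CPM above 1 in 3 libraries 7 (61.1%) and that with brood as a replicate block 6 (66%). A fit chosen after the values were seen, with lone males counted as social rock, called 7 of 7 tested (92.7%). Leaving out 1 social rock or social sand library gave 0 to 5 (12.4% to 57.9%). Against 6 as reported for lone over social sand (64.3%), limma-voom called 3 (33.4%), DESeq2 7 (79.3%) and both looser filters 8 (68% and 68.6%). Thinning called 5 of 6 tested (67.3%), and median-ratio and total-count scaling 6 each (66.9% and 70.9%). Leaving out 1 social rock or social sand library gave 4 to 6 (40.8% to 78.2%). For lone over social rock 0 were called under every alternative. Between lone and social rock males LOC101467141 had a log2 fold change of -0.12 without the Labeotropheus × Mchenga lone male. That of grin2a was -0.01 without the same male, -0.14 without the Petrotilapia × Mchenga and -0.08 without the Petrotilapia × Aulonocara social rock male, against 0.12 as reported. Over all fits that left out 1 library the values ran from -0.12 to 1.48 for LOC101467141 and from -0.14 to 0.80 for grin2a. The cause of these changes was not tested. Scaling by total counts moved the median log2 fold change in social sand over social rock from -0.07 to -0.24 over all genes and from -1.69 to -1.90 over the 9, with 2 called. With 57 to 119 counts of the 9 genes in a social sand library, depth limits grin2a, GRM4 and LOC101467141 the most, and thinning to the smallest total removed these 3 from the test.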

Other observations

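The balance of gria2 and the U1 gene (LOC101486280) within a library, noticed after the values were seen, differed between brothers in opposite directions in 2 broods. The ratio of gria2 to U1 counts was 1.64 to 3.77 in social rock, 1.65 and 3.10 in lone, and 1.17, 0.824 and 2.08 in the social sand males of the Petrotilapia × Mchenga, Petrotilapia × Aulonocara and Maylandia × Tramitichromis broods. The Petrotilapia × Aulonocara brothers had 3.77 in social rock and 0.824 in social sand, with gria2 at 79% (exact 95% binomial interval 73.2% to 84.1%) and 45.2% (27.3% to 64%) of both genes' counts. In the Labeotropheus × Mchenga brood the ratio was 3.19 in the social rock male and 16.2, from 65 and 4 counts, in the social sand male. Of the latter's counts 94.2% fell to gria2 (85.8% to 98.4%), against 76.2% (72.2% to 79.9%) in the social rock and 62.3% (57.3% to 67.1%) in the lone brother of the same brood. These intervals cover counting error only, and the values are those of single fish, with no replicate of a brood.

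The spread among libraries of a group, as the biological coefficient of variation that edgeR fitted, was 39.3% for gria2, 41% for the U1 gene, 38% for grina, 38.7% for LOC101474840 and 39.4% for delphilin, against a median of 42.4% over all genes tested. It was 49.4% for GRM3, 55.5% for grin2a, 59.6% for LOC101467141 and 63.9% for GRM4.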
